A study of Mus musculus with 30 samples.

Results

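The 10 genes described here are grouped under the oxidation of retinol to retinoic acid, the return of retinal to retinol, or the breakdown of retinoic acid: Adh1, Adh7, Rdh7, Rdh16, Dhrs3, Aldh1a1, Aldh1a7, Aldh8a1, Cyp26a1 and Cyp26b1. Aldh1a7 is listed as a close copy of Aldh1a1, and these data do not show whether its enzyme oxidises retinal. The 10 genes were taken by symbol from the 3 deposited gene tables. All 10 are among the 13091 genes of the postnatal day (PND) 42 table, and 9 are among the 14259 genes of the PND1 and of the PND21 table. Cyp26a1 was not analysed here at PND1 and PND21. The study asked what cadmium given before birth does to gene expression in the liver at 3 later ages. The animals were CD-1 mice, an outbred stock, either exposed during gestation to cadmium chloride (CdCl2) at 500 ppb or serving as controls, and RNA was taken from their livers. The groups were 4 exposed and 4 control females at PND1, 3 exposed and 3 control females at PND21, 4 exposed and 4 control females at PND42, and 4 exposed and 4 control males at PND42, which made 30 libraries. No label gives the route of exposure, the vehicle or the litter of each pup. Replicates carry separate animal tags, but nothing says that they came from separate dams, so p-values measure the spread between these samples alone.

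In the liver, retinol is oxidised to retinal by cytosolic alcohol dehydrogenases and by membrane-bound retinol dehydrogenases, and the step is reversible. Retinal is then oxidised irreversibly to retinoic acid by aldehyde dehydrogenases of the ALDH1A family, and retinoic acid binds nuclear receptors of the RAR family, which act as dimers with RXR. Cytochromes of the CYP26 family hydroxylate retinoic acid and so end its action, and the gene Cyp26a1 is itself a classical target of retinoic acid. Hepatocytes carry most of the oxidising enzymes, while stellate cells hold the body's main store of retinyl esters.

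On the mouse build GRCm38 (mm10), with GENCODE vM21 gene models, Adh1 lies at chr3:138260991-138290698 and its neighbour Adh7 at chr3:138217760-138233382, both on the plus strand. Aldh1a1 lies at chr19:20492715-20643465 on the plus strand and Aldh1a7 at chr19:20692953-20727562 on the minus strand. Cyp26a1 lies at chr19:37697798-37701536 on the plus strand and Cyp26b1 at chr6:84571414-84593908 on the minus strand. Aldh1a1 and Aldh1a7 are close copies of each other, so their sequences are shown first, because they bear on whether reads of 125 bases could tell the 2 genes apart. Their coding sequences were 91.9% identical over aligned bases, and the longest identical run was 100 bases. A window of 125 coding bases held a median of 9 mismatches, with at least 2 in every window. Such a window, bases 10 to 134 of each coding sequence, is printed 5′ to 3′ with the mismatched bases in capitals.
Aldh1a1: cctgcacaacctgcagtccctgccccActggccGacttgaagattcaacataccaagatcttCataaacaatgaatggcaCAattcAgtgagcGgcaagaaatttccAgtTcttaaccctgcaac
Aldh1a7: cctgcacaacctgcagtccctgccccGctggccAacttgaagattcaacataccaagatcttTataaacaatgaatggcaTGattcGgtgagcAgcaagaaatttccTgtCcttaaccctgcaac
No window of 125 bases was shared exactly between either transcript and another gene. Of such windows 2.57% in Rdh7 and 4.25% in Rdh16 also occurred in other Rdh genes, so reads from these windows cannot be told apart. Only the longest coding transcript of each gene was searched. How far shared reads moved the values of these 2 genes was not tested. Adh1 and Adh7 each share exon bases with 1 antisense gene, and Rdh16 shares exon bases with the pseudogene Rdh18-ps. No label says whether the authors counted by strand, so reads of Adh1 and Adh7 cannot be told apart from those of their antisense neighbours. Rdh18-ps lies on the same strand as Rdh16, where counting by strand would not part them.

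The 2 Aldh1a genes are also alike just upstream of a RefSeq start of each. The windows below are RefSeq promoter sequence on GRCm38.p6, at chr19:20601858-20601967 on the plus strand for Aldh1a1 and chr19:20727557-20727666 on the minus strand for Aldh1a7. The Aldh1a1 window lies inside the gene's GENCODE span, and another RefSeq window of that gene, chr19:20492433-20492582, lies before the GENCODE start and was not compared. The 2 windows are shown because the genes are close copies and neighbours. Both genes gave lower means in every exposure comparison described below, as did 20.2% of the 12620 genes tested in all 4. Any part of these windows in that was not tested. Of 110 bases 104 were the same, which is 94.5%, and the 6 that differ are in capitals.
Aldh1a1: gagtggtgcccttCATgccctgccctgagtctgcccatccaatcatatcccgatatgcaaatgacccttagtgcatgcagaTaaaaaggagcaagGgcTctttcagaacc
Aldh1a7: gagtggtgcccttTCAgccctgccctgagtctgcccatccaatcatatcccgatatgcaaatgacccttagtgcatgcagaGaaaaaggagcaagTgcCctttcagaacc
The promoter of Cyp26a1 is shown because it holds a match to the retinoic acid response element known for this gene. The motif searched was a direct repeat, with a spacer of 5 bases, of half-sites spelled AGGTCA or else GGGTCA or else AGTTCA or else GGTTCA, on both strands. It starts 32 bases before the RefSeq start of the gene, in the window chr19:37697658-37697807 (GRCm38.p6, plus strand), and its half-sites are in capitals as their reverse complement.
Cyp26a1: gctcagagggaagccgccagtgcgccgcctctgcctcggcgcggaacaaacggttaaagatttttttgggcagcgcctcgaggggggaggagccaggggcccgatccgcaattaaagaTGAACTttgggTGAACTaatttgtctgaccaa
Of 32851 RefSeq promoter windows in the genome 0.0974% held this repeat, and 1 of the 14 windows of the 10 genes did. Repeats with a spacer of 1 or 2 bases were found in 0 of the 14 windows, against 0.222% and 0.268% of all windows. A match describes letters in a window and is not evidence of binding.

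Read totals over the listed genes were 22.0 to 40.1 M reads a library. The fewest reads behind any value of the 10 genes were 17 for Cyp26b1, and at PND1 44 for Aldh1a7, 51 for Rdh16 and 56 for Adh7. Counting error thus matters for Cyp26b1 at all 3 ages and for Aldh1a7, Rdh16 and Adh7 at PND1. Values are given as normalised read counts, which are read counts divided by the authors' size factor of the library. PND1 and PND21 libraries were scaled together and PND42 libraries apart, so levels are not compared between PND42 and the younger ages. Fold changes were estimated with limma on the deposited scale, log2(normalised count + 1), which slightly understates changes of low genes. Adjusted p-values are from limma with Benjamini-Hochberg adjustment over all genes tested, and a gene is said to rise or fall where that value is under 0.05. In the labelled tissue, 9 of 10 hepatocyte markers were measured and none of the 9 was at 0 in any library. In bulk tissue, fewer cells of a type and less RNA per cell cannot be told apart.

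The exposed females at PND42 differed from the control females of that age in measures of the RNA as a whole. Mitochondrially encoded genes took 27.6% ± 6.29 of reads in exposed females and 8.49% ± 3.15 in control females (SD, n = 4 each), and the groups did not overlap. Hepatocyte markers averaged 16.07 ± 0.21 log2 units in exposed females and 17.14 ± 0.12 in control females, and their summed level was between 1326800 and 2379100 normalised counts in exposed females, while control females had between 3129200 and 4175300. Malat1 and Neat1, long RNAs kept in the nucleus, averaged 15.65 log2 units in exposed females and 13.81 in control females. Markers of sinusoidal endothelium (8 of 8 measured, none at 0) averaged 9.65 log2 units in exposed females and 10.19 in control females. Female-biased liver markers (8 of 8 measured) averaged 9.72 log2 units in exposed females and 13.34 in control females, Alb (albumin) 20.28 in exposed and 21.37 in control females, and mesothelium markers (3 of 6 measured) 4.38 in exposed and 5.50 in control females. In all 7 of these measures the female groups did not overlap. Each gave p = 0.0286 in a two-sided exact permutation test, the smallest that 4 against 4 allows, and 0.186 after adjustment over the 52 such tests of the study. In males the same measures overlapped between exposed and control mice.

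In control females 8 of the 9 genes rose between PND1 and PND21, all but Cyp26b1. The largest of these differences belonged to Aldh1a1, an enzyme that makes retinoic acid from retinal, which had 7385, 8420 and 8644 normalised counts at PND21, against 185, 233, 231 and 153.5 at PND1. The groups were far apart, with a log2 fold change of 5.35 ± 0.16 (SE), which is 40.9-fold (adjusted p = 1.94e-11). Aldh1a7, its copy, had 1818, 2020 and 1891 counts at PND21, against 49.1, 184, 203 and 174 at PND1, a 14.2-fold difference (log2 3.82 ± 0.38, adjusted p = 1.4e-06). Every PND21 value was above every PND1 value, and PND1 control 1 was low among its group.

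**Figure D1:**
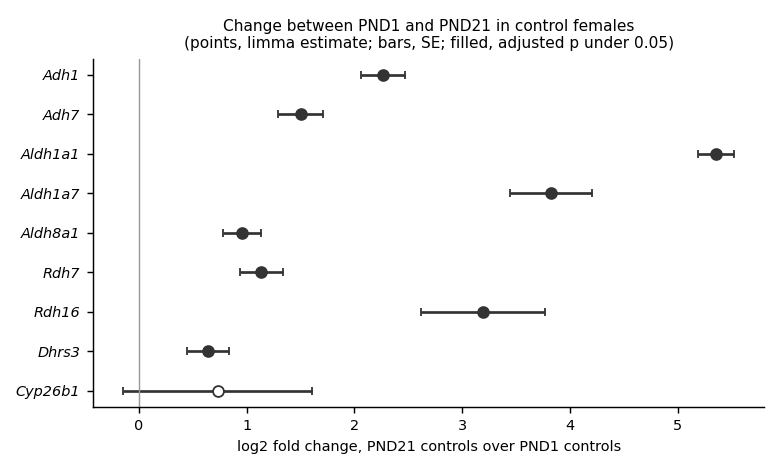
Log2 fold change of each gene in PND21 over PND1 control females (3 and 4 livers), with points for the limma estimate, bars for its standard error and filled points for adjusted p under 0.05. Aldh1a1 sits farthest to the right at 5.35, followed by Aldh1a7 at 3.82 and Rdh16 at 3.19, and Cyp26b1 is the open point.

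Among the enzymes that oxidise retinol, Rdh16, a membrane-bound dehydrogenase that also acts on hydroxysteroids, had 1325, 530 and 1206 counts in PND21 controls and 329, 60.1, 54.5 and 103 in PND1 controls. These did not overlap either, and the gene rose 9.12-fold (log2 3.19 ± 0.58). Adh1, the class I alcohol dehydrogenase that is abundant in hepatocytes, averaged 43507 ± 8052 counts at PND21 and 9070 ± 1672 at PND1 (SD, n = 3 and 4), a 4.81-fold rise. Adh7, the class IV enzyme better known from stomach, averaged 319 ± 40.9 at PND21 and 112 ± 7.81 at PND1 (log2 1.50 ± 0.21). Rdh7, a retinol dehydrogenase related to Rdh16, rose by 1.13 ± 0.20 on the log2 scale and Aldh8a1, an aldehyde dehydrogenase able to oxidise 9-cis-retinal, by 0.95 ± 0.18. Dhrs3, which reduces retinal back to retinol, averaged 3009 ± 446 at PND21 and 1918 ± 119 at PND1 (log2 0.64 ± 0.19, adjusted p = 0.011). Cyp26b1, which breaks retinoic acid down, averaged 50.9 ± 18.3 at PND21 and 30.04 ± 9.10 at PND1, and its groups overlapped (log2 0.73 ± 0.88, adjusted p = 0.496).

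The count of 8 that rose stands against 27.7% of all 14259 genes that rose between these ages, with 56.0% called in either direction (54.2% by limma voom). The groups did not overlap, with PND21 above PND1, for the same 8 genes, against 27.4% of all genes. The median log2 fold change was 1.50 over the 9 genes and 0.01 over all genes. With libraries scaled by total reads the median of all genes moved by -0.51 in this comparison, and Dhrs3 was then no longer called, at 0.13. The changed balance between Adh1 and Aldh1a1 is plain in single livers. Adh1 had 4.63 to 5.69 times the normalised count of Aldh1a1 in PND21 controls, against 28.7 to 68.5 times in PND1 controls, counts that are not divided by gene length.

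Per kilobase of exon, PND21 control females had most of Adh1 (19484 normalised counts per kb on average) and Rdh7 (17056), then Aldh1a1 (1651), Aldh8a1 (1339), Dhrs3 (1028), Aldh1a7 (924), Rdh16 (164), Adh7 (84.1) and Cyp26b1 (9.51). In PND42 control females the order was Adh1 (24181), Rdh7 (21880), Aldh1a1 (4907), Aldh8a1 (1607), Dhrs3 (1461), Aldh1a7 (1219), Rdh16 (308), Cyp26a1 (184), Adh7 (50.5) and Cyp26b1 (19.8). In the PND21 order the single libraries of Adh1 and Rdh7 overlapped, as did those of Aldh1a1 and Aldh8a1, of Dhrs3 and Aldh1a7, and of Rdh16 and Adh7. In the PND42 order the values of Adh1 and Rdh7 overlapped, as did those of Aldh8a1, Dhrs3 and Aldh1a7, and those of Rdh16 and Cyp26a1. Adh1 and Rdh7 thus shared the top of the pathway and the CYP26 genes lay near its foot.

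**Figure D2:**
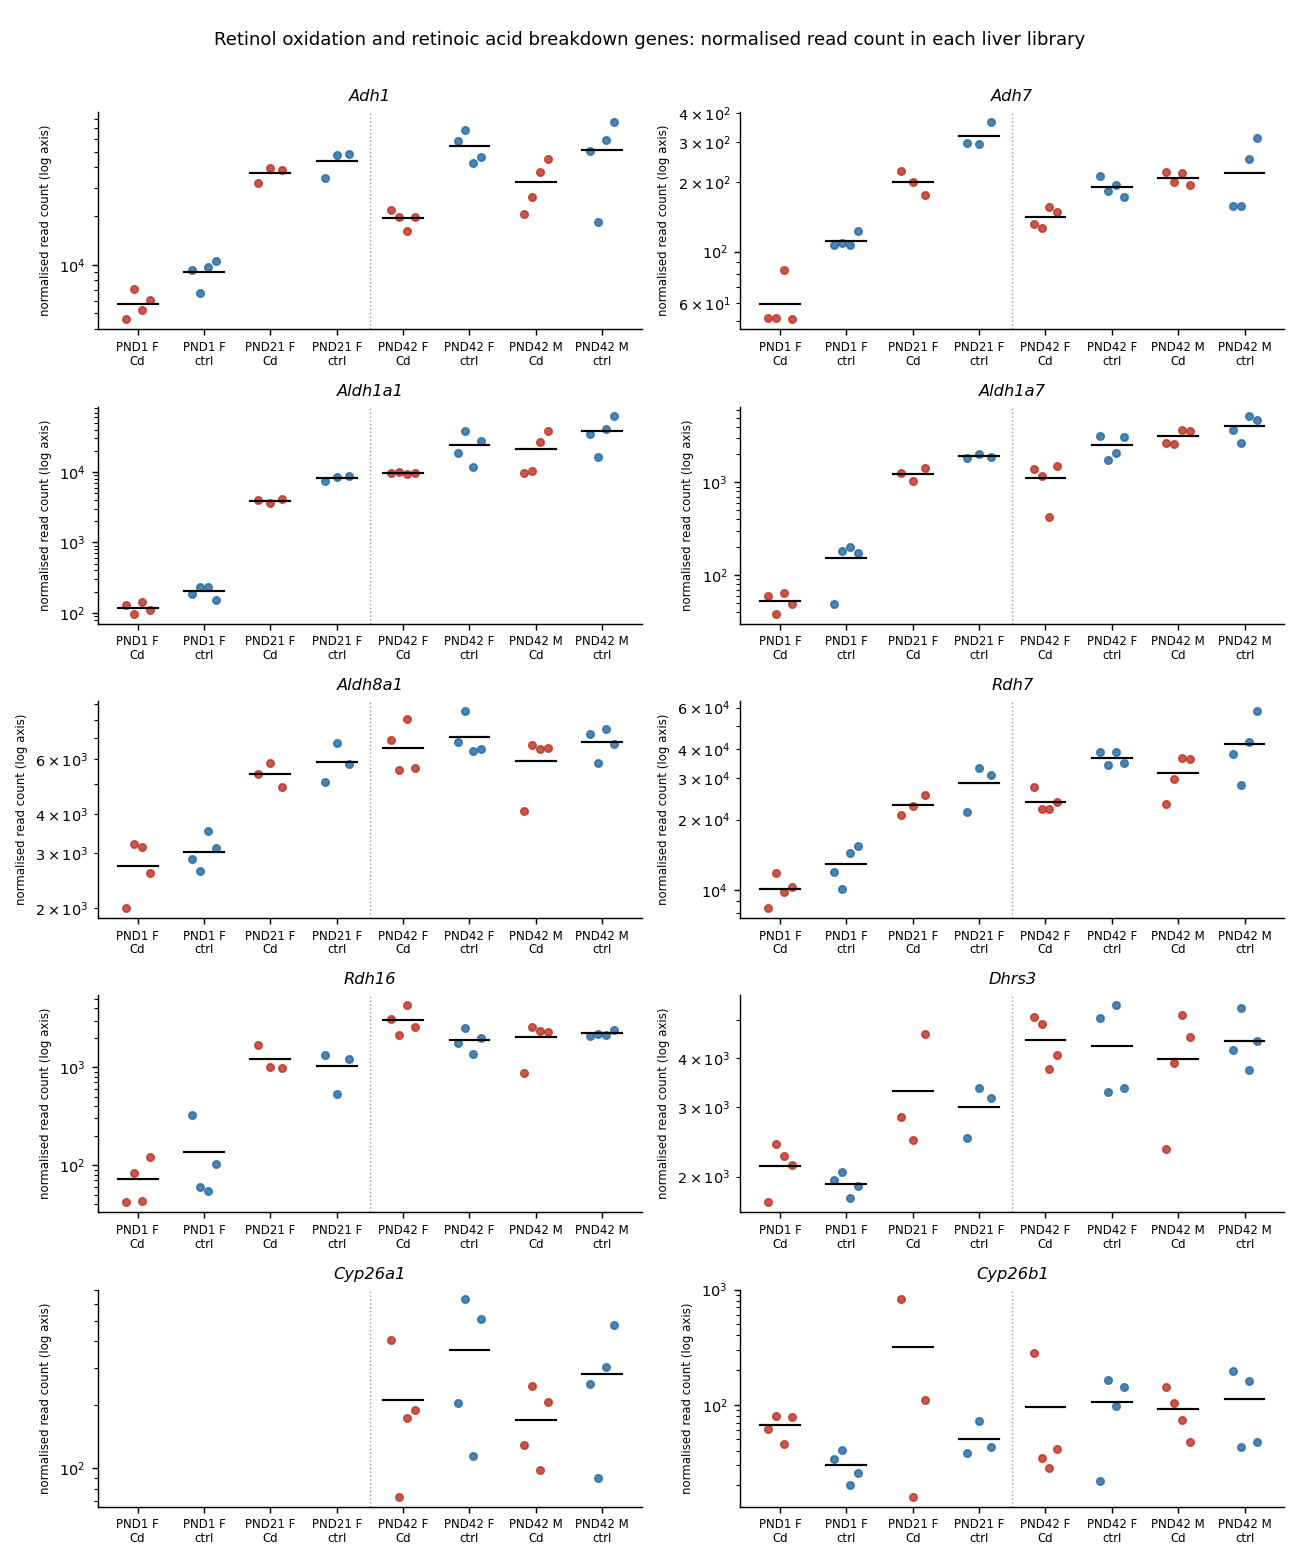
Normalised read count of each gene in each liver library (log axis), with exposed groups (Cd) left of their controls (ctrl), points for libraries and a line for each group mean. The dotted line parts the PND1 and PND21 libraries from the PND42 libraries, which were scaled separately. Adh1, Aldh1a1 and Aldh1a7 are lower in exposed than in control females at PND42, and Aldh1a1 climbs most between PND1 and PND21.

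At PND1, livers of exposed females had lower levels of both alcohol dehydrogenases and of both close Aldh1a copies, and a higher level of Cyp26b1, but none of the 9 genes passed the adjusted threshold. Adh7 had 51.3, 51.4, 83.5 and 50.8 counts in exposed females, against 107, 109, 107 and 123 in control females. All exposed values were below all control values, with exposed female 3 nearest to them (log2 -0.93 ± 0.22, adjusted p = 0.244). Aldh1a1 had 127, 96.8, 141 and 110 counts in exposed females and 185, 233, 231 and 153.5 in control females. These groups did not overlap either (log2 -0.75 ± 0.20, adjusted p = 0.246).

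Aldh1a7 had 58.9, 38.4, 64.3 and 49.0 counts in exposed females, against 49.1, 184, 203 and 174 in control females. Control female 1 lay among the exposed livers, and the other 3 controls lay well above them (log2 -1.36 ± 0.42, adjusted p = 0.261). Adh1 had 4596, 7073, 5267 and 6047 counts in exposed females and 9342, 6671, 9744 and 10520 in control females. Exposed female 2 was above control female 2, and all 4 exposed values were below the control mean (log2 -0.66 ± 0.18, adjusted p = 0.246). Cyp26b1 had 61.7, 80.2, 45.9 and 78.9 counts in exposed females and 34.0, 40.6, 20.1 and 25.4 in control females. Every exposed value was above every control value (log2 1.14 ± 0.30, adjusted p = 0.246), on 21 to 92 reads a library.

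The remaining enzymes differed less between the groups at PND1. Rdh7 averaged 10082 ± 1411 counts in exposed females and 12991 ± 2423 in control females (SD, n = 4 each), and all 4 exposed livers were below the control mean (log2 -0.36 ± 0.17). Rdh16 had 41.6, 83.7, 42.6 and 122 counts in exposed females and 329, 60.1, 54.5 and 103 in control females. Control female 1 stood high and the rest overlapped, which gave a log2 fold change of -0.65 ± 0.57. The log2 fold changes of Aldh8a1, at -0.17 ± 0.17, and Dhrs3, at 0.14 ± 0.13, were close to their standard errors.

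Limma called 0 of 14059 genes at PND1, which is 0.0%, and limma voom on the recovered reads also called 0. At an unadjusted p under 0.05, 5 of the 9 genes passed (Adh1, Adh7, Aldh1a1, Aldh1a7 and Cyp26b1), against 14.5% of all genes by limma (2039 genes) and as large a share by limma voom (2036 genes). Groups that did not overlap were found below the controls for 2 of the 9 genes, against 4.82% of all genes, and above them for 1, against 2.94%. In the authors' deposited table for PND1 the adjusted p of Adh1 was 0.0421, that of Aldh1a1 0.00795 and that of Aldh1a7 0.00264. These were 3 of the 72 genes under 0.05, among 6790 genes that have an adjusted p in that table. Adh7 has an unadjusted p of 9.39e-06 there and no adjusted p. For Cyp26b1 the authors' deposited table has a log2 fold change of 1.15 with a standard error of 0.81, an unadjusted p of 0.155 and no adjusted p. Sinusoidal endothelium markers (8 of 8 measured, none at 0) summed to between 13334 and 16461 counts in exposed livers and between 10530 and 11813 in control livers, without overlap. Hepatocyte markers averaged 15.46 log2 units in exposed females and 15.84 in control females and overlapped (exact permutation p = 0.0857). The part of either shift in these values was not tested.

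**Figure D3:**
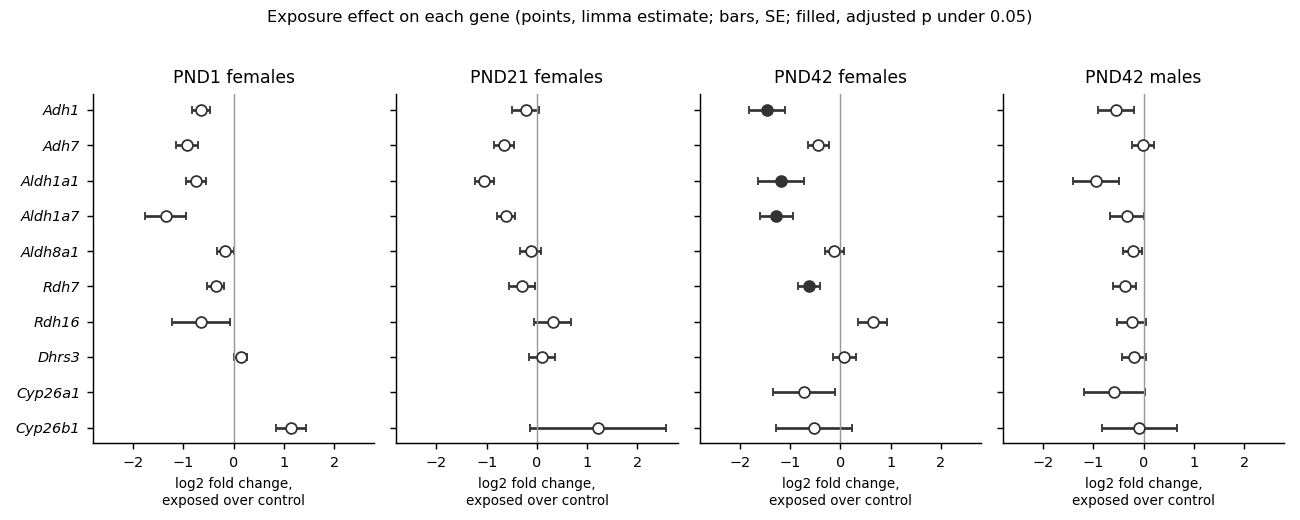
Log2 fold change of each gene in exposed over control livers, in the 4 comparisons of exposure, with points for the limma estimate, bars for its standard error and filled points for adjusted p under 0.05. The filled points are those of Adh1, Aldh1a1, Aldh1a7 and Rdh7 in PND42 females, and Aldh1a1 is left of 0 in all 4 panels, at -0.75, -1.05, -1.18 and -0.95.

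At PND21 the lower values in exposed females lay with Aldh1a1, Aldh1a7 and Adh7, while Adh1 and Rdh7 overlapped between the groups. Aldh1a1 had 4025, 3655 and 4099 counts in exposed females, against 7385, 8420 and 8644 in control females. No exposed liver came near a control liver, and the difference was 2.07-fold (log2 -1.05 ± 0.19, adjusted p = 0.224). Aldh1a7 had 1276, 1047 and 1416 counts in exposed females and 1818, 2020 and 1891 in control females, again without overlap (log2 -0.62 ± 0.18, adjusted p = 0.424). Adh7 had 224, 200 and 177 counts in exposed females and 298, 292 and 366 in control females, also without overlap (log2 -0.66 ± 0.20, adjusted p = 0.426).

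The other genes moved little at PND21 against their spread. Adh1 averaged 36841 ± 4087 counts in exposed females and 43507 ± 8052 in control females (SD, n = 3 each), with a log2 fold change of -0.23 ± 0.26. Rdh7 gave -0.29 ± 0.26 and Rdh16 gave 0.31 ± 0.37. Aldh8a1 gave -0.13 ± 0.20 and Dhrs3 gave 0.09 ± 0.26. Cyp26b1 was the most uneven gene, with 823, 15.9 and 110 counts in exposed females and 37.9, 71.8 and 42.9 in control females. Exposed female 1 was far above all others and exposed female 2 below all others, so that the log2 fold change was 1.21 ± 1.36, and without exposed female 1 it was -0.20.

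At PND21 limma called 0 of the 9 genes, against 0.036% of 13886 genes (5 genes), and limma voom called 2 genes, with 0 of the 9 among them. At an unadjusted p under 0.05, 3 of the 9 passed, against 9.57% of all genes by limma (1329 genes) and 8.9% by limma voom (1236 genes). The groups did not overlap for these 3, all below the controls, against 8.62% of all genes, and for 0 above them, against 7.99%. With PND1 and PND21 in 1 fit of 4 groups, which pools their spread, Aldh1a1 was called at an adjusted p of 0.0244. That fit also called more of all genes than the main fit, by the number given with the alternatives below. In the authors' deposited table for PND21 its adjusted p was 2.23e-06. It was the 1 of the 9 genes among 446 under 0.05 there, of 14235 genes with an adjusted p. Stellate cell markers (12 of 12 measured, none at 0) averaged 10.12 log2 units in exposed females and 9.63 in control females without overlap, at an exact permutation p of 0.1, the smallest that 3 against 3 allows. Their summed level, between 24743 and 41377 counts in exposed livers and between 22498 and 29463 in control livers, overlapped, and its part in these values was not tested.

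The size of the exposure effect was not shown to differ between PND21 and PND1 for any of the 9 genes. Limma called 0 of the 9 in the test of that difference, against 0.014% of 14259 genes (2 genes, and 0 by limma voom), and 0 of the 9 had an unadjusted p under 0.05, against 9.07% of all genes (1294 genes). The gene of lowest p was Adh1, at 0.43 ± 0.29 on the log2 scale, PND21 minus PND1.

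At PND42, exposed females had lower levels of Adh1, Aldh1a1, Aldh1a7 and Rdh7, that is of the most abundant retinol-oxidising enzymes and of both Aldh1a copies, and 4 of the 10 genes fell and 0 rose. Adh1 had 21889, 19862, 16180 and 19822 counts in exposed females, against 58200, 68382, 42821 and 46578 in control females. The highest exposed liver lay far below the lowest control. The fold difference was 2.75 (log2 -1.46 ± 0.35, adjusted p = 0.00344). Rdh7 had 27415, 22127, 22256 and 23688 counts in exposed females and 38908, 34144, 38849 and 34959 in control females. The groups did not overlap and each was tight (log2 -0.62 ± 0.22, adjusted p = 0.0336).

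Aldh1a1 had 9768, 10098, 9515 and 9649 counts in exposed females, against 18543, 38576, 11938 and 27847 in control females. The exposed livers were nearly alike, with the highest 1.06 times the lowest, while the highest control had 3.23 times the lowest. The gene fell 2.26-fold at the edge of the threshold (log2 -1.18 ± 0.46, adjusted p = 0.0498). Aldh1a7 had 1408, 1172, 424 and 1488 counts in exposed females and 3160, 1760, 2088 and 3065 in control females. Exposed female 3 was the lowest and no value overlapped (log2 -1.27 ± 0.33, adjusted p = 0.00623).

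Adh7 had 132, 126, 156.8 and 148.9 counts in exposed females and 213, 184, 195 and 172 in control females, below the controls in all livers but not called (log2 -0.44 ± 0.21, adjusted p = 0.113). Rdh16 went the other way from Rdh7, with 3083, 2159, 4324 and 2551 counts in exposed females and 1760, 2548, 1375 and 1988 in control females. All 4 exposed values were above the control mean and the groups overlapped (log2 0.65 ± 0.29, adjusted p = 0.087). Aldh8a1 averaged 6528 ± 1201 counts in exposed females and 7052 ± 1029 in control females, and Dhrs3 averaged 4442 ± 635 in exposed females and 4278 ± 1125 in control females (SD, n = 4 each). Neither difference exceeded the spread (log2 -0.12 ± 0.19 and 0.08 ± 0.24).

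The 2 enzymes of retinoic acid breakdown varied widely among single livers at PND42. Cyp26a1 had 407, 73.5, 174 and 190 counts in exposed females, against 204, 631, 114 and 508 in control females, so that the highest was 5.54 times the lowest in either group. The groups overlapped (log2 -0.72 ± 0.61, adjusted p = 0.366). Cyp26b1 had 279, 34.3, 28.1 and 41.0 counts in exposed females and 21.7, 164, 97.2 and 142 in control females. Exposed female 1 was the highest of all and control female 2 the lowest (log2 -0.53 ± 0.75, adjusted p = 0.605).

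The 4 genes called at PND42 stand against 40.2% of 13091 genes called in females, which is 42.7% by limma voom. The 4 that fell stand against 21.4% of all genes that fell and the 0 that rose against 18.9% that rose, and the share called is that of all genes. Groups that did not overlap, with exposed below control, were found for 5 of the 10 genes, against 23.5% of all genes, and with exposed above control for 0, against 22.3%. The median log2 fold change was -0.58 over the 10 genes and 0.00 over all genes. The hepatocyte marker and mitochondrial read measures given above moved with exposure in these females. With the hepatocyte marker mean as a covariate, added after the data were seen, Adh1 was at 0.41 ± 0.43, Aldh1a1 at 0.83 ± 0.72, Rdh7 at 0.36 ± 0.30 and Aldh1a7 at -0.21 ± 0.61, and 0 of the 10 genes and 6 of all genes were called. With the mitochondrial share as the covariate, Adh1 was at -0.45, Aldh1a1 at 0.50, Rdh7 at -0.20 and Aldh1a7 at -1.21, and again 0 of the 10 and 73 of all genes were called. Since the female groups did not overlap in either measure, exposure and these measures cannot be told apart there.

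Of the 4 calls, those of Adh1 and Aldh1a7 held without any single library, and those of Aldh1a1 and Rdh7 did not. Aldh1a1 was no longer called without exposed female 1 (log2 -1.18), 2 (-1.20), 3 (-1.17) or 4 (-1.17), without control female 2 (-1.26) or 3 (-0.91), or without the control female that has no replicate number (-1.07), nor with scaling by total reads (-1.13). Rdh7 was no longer called without exposed female 2 (-0.59), 3 (-0.59) or 4 (-0.62), control female 2 (-0.60) or 4 (-0.60), or the control female with no number (-0.65). The tag of that control column is one that the labels give to a PND21 control, so its sample is uncertain, and without it Adh1 was at -1.52 and Aldh1a7 at -1.16.

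**Figure D4:**
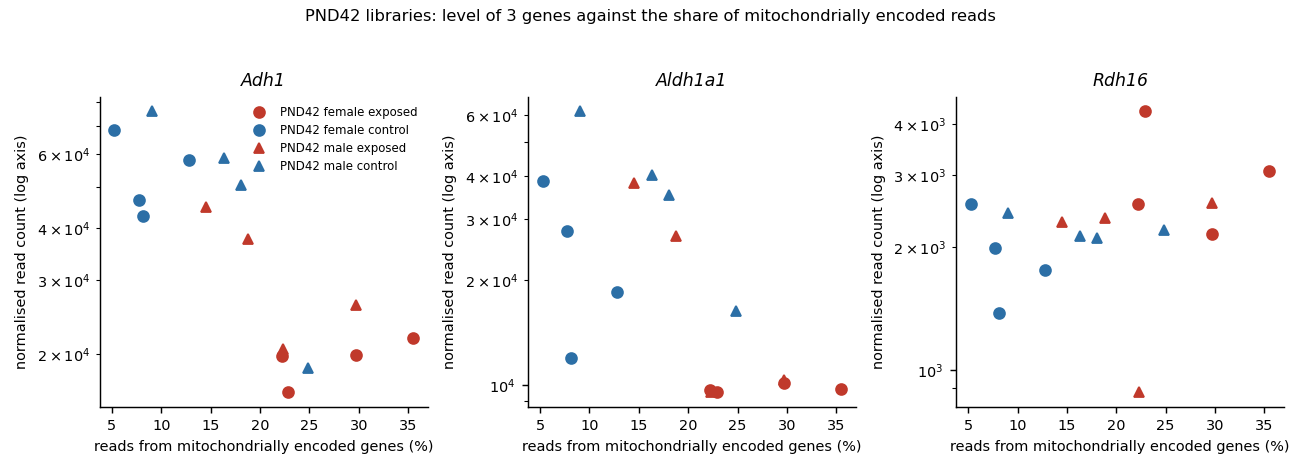
Normalised read count (log axis) of Adh1, Aldh1a1 and Rdh16 in each PND42 library against the share of its reads from mitochondrially encoded genes (percent), with circles for females, triangles for males, red for exposed and blue for control mice. Exposed females lie between 22.2% and 35.5% with low Adh1 and Aldh1a1, and the unnumbered control male at 24.8% lies among them for Adh1, at 18500 counts.

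In males at PND42 all 10 genes had lower means on the log2 scale in exposed than in control mice, but none was called and the groups overlapped for every gene. Adh1 had 20576, 26199, 37700 and 44886 counts in exposed males, against 50598 in control male 1 and 18500, 58745 and 76207 in the 3 control males without a number. The lowest value belonged to a control, and the log2 fold change was -0.55 ± 0.35 (adjusted p = 0.622). Aldh1a1 had 9558, 10346, 26895 and 38214 counts in exposed males and 35195, 16285, 40262 and 61688 in control males in the same order. Exposed males 1 and 2 were lower than every control (log2 -0.95 ± 0.46, adjusted p = 0.622).

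Rdh7 averaged 31566 ± 6315 counts in exposed males and 41793 ± 12577 in control males, and Aldh1a7 averaged 3137 ± 593 in exposed males and 4029 ± 1116 in control males (SD, n = 4 each). All 4 exposed males were below the control mean for both (log2 -0.38 ± 0.22 and -0.33 ± 0.33). Cyp26a1 had 130, 247, 98.0 and 206 counts in exposed males and 251, 89.9, 303 and 477 in control males, overlapping (log2 -0.58 ± 0.61). Adh7 gave -0.01 ± 0.21, Aldh8a1 -0.22 ± 0.19, Rdh16 -0.24 ± 0.29, Dhrs3 -0.20 ± 0.24 and Cyp26b1 -0.08 ± 0.75. For Adh7 the sign turned with TMM scaling (0.02), scaling by total reads (0.09) and limma voom (0.01), and for Cyp26b1 with scaling by total reads (0.02).

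Limma called 0 of 13091 genes in males, which is 0.0%, and limma voom also called 0. At an unadjusted p under 0.05 were 0 of the 10 genes, against 7.12% of all genes by limma (932 genes) and 5.81% by limma voom (760 genes). Groups that did not overlap were found for 0 of the 10, against 1.73% of all genes. A lower mean in exposed mice was found for 52.9% of all genes. The unnumbered control male with 18500 counts of Adh1 had 24.8% mitochondrially encoded reads, the highest of the control males. Without it 27 genes were called, none of them among the 10, and Adh1 was at -0.98 (adjusted p = 0.0628) and Aldh1a1 at -1.31 (adjusted p = 0.103).

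The difference between the male and the female effect at PND42 was tested directly and called for 0 of the 10 genes, against 7.91% of all genes (7.87% by limma voom). At an unadjusted p under 0.05 was 1 of the 10, against 25.2% of all genes. That gene was Rdh16, at -0.89 ± 0.41 on the log2 scale, male minus female (adjusted p = 0.189). The effect on Adh1 was -0.55 in males and -1.46 in females, and that difference, 0.91 ± 0.50, was not called (adjusted p = 0.266). Between male and female controls 0 of the 10 genes were called either, against 6.93% of all genes (6.25% by limma voom), and 0 had an unadjusted p under 0.05, against 23.0%. The gene of lowest p was Aldh1a7, with 4029 ± 1116 counts in control males and 2518 ± 700 in control females (log2 0.68 ± 0.33, adjusted p = 0.236).

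Across the 4 comparisons of exposure, 6 of the genes had a lower mean in exposed mice each time: Adh1, Adh7, Aldh1a1, Aldh1a7, Aldh8a1 and Rdh7. A lower mean all 4 times was found for 20.2% of the 12620 genes tested in all 4. With scaling by total reads, 3 of the 6 were lower each time (Aldh1a1, Aldh1a7 and Rdh7), against 8.61% of all genes, since Adh1 (0.0092) and Aldh8a1 (0.11) then turned at PND21 and Adh7 (0.09) in males. The other genes measured at all ages were Rdh16, Dhrs3 and Cyp26b1. No control library was shared between the 4 comparisons, but the leading numbers of the animal tags recur across groups (12, for one, in an exposed female and an exposed male at PND42). No label says what the numbers mean, and shared litters were not modelled. The comparisons of PND21 with PND1 controls and of male with female controls use the same control libraries again. The share of all genes with a lower mean was 50.8% at PND1, 51.1% at PND21, 49.9% in PND42 females and 52.9% in PND42 males. At PND21 Aldh1a1 had 2.90 to 3.49 times the normalised count of Aldh1a7 in exposed females, against 4.06 to 4.57 times in control females, so the ratio of the 2 copies did not overlap between the groups there. At PND42 that ratio was between 6.49 and 22.4 in exposed females and between 5.72 and 21.9 in control females. In PND42 males it was between 3.57 and 10.7 in exposed mice and between 6.19 and 13.2 in control mice. At PND1 it was between 2.15 and 2.52 in exposed females and between 0.88 and 3.77 in control females. Apart from PND21, the groups thus overlapped in this ratio.

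Other genes of retinoid metabolism were counted from 3 lists: 30 other oxidising and reducing enzymes, 24 genes of storage, carriers and carotenoid cleavage, and 15 receptors and cofactors. In PND42 females 4 of the 17 tested enzymes rose and 9 fell, against 18.9% and 21.4% of all genes, with a median log2 fold change of -0.99, against 0.00 over all genes. These counts, and those of the other lists, belong to livers whose mitochondrial share, hepatocyte markers and female-biased markers differed from those of control females. Malat1 and Neat1 were higher in the same livers, and any part of these measures in the counts was not tested. Rdh10, a retinol dehydrogenase needed in embryonic retinoic acid synthesis, averaged 416 counts in exposed females and 888 in control females (log2 -1.09 ± 0.14). Aldh1b1, a mitochondrial aldehyde dehydrogenase, averaged 774 in exposed females and 2632 in control females (log2 -1.74 ± 0.23). Of 17 storage and carrier genes 1 rose and 6 fell. Of 15 receptors and cofactors 8 rose and 0 fell, among them the coactivators Ncoa1 (1307 counts in exposed females, 556 in control females) and Ncoa3 (1556 and 796). The difference between the male and the female effect was called for 2 of 17 enzymes, Aldh1b1 (2.01 ± 0.32, male minus female) and Rdh10 (0.93 ± 0.19). Of 15 receptors and cofactors 2 were called, Ncoa3 (-0.87 ± 0.21) and Ncoa1 (-1.04 ± 0.30), and of 17 storage and carrier genes 0. The share of all genes called in that test was 7.91%.

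In the other comparisons of exposure 0 genes of the 3 lists were called. The enzyme of lowest p was each time Cbr1, a carbonyl reductase. Cbr1 averaged 1197 counts in exposed and 2007 in control females at PND1 (log2 -0.73 ± 0.15, adjusted p = 0.244), and 2881 in exposed and 5101 in control females at PND21 (-0.81 ± 0.33, adjusted p = 0.502). In PND42 males it averaged 1567 in exposed and 3073 in control mice (-0.98 ± 0.23, adjusted p = 0.622). In control females between PND1 and PND21, 9 of 18 other enzymes rose and 2 fell, 8 of 18 storage and carrier genes rose and 3 fell, and 8 of 15 receptors rose and 0 fell, against 27.7% of all genes that rose and 28.3% that fell. Cyp2c39, a mouse cytochrome able to hydroxylate retinoic acid, had the lowest p there, with 6681 counts in PND21 controls and 41.6 in PND1 controls (log2 7.34 ± 0.28). Rbp2, of the storage and carrier list, came next and fell, with 1.37 counts in PND21 controls and 348 in PND1 controls (log2 -7.38 ± 0.43). Ces1g (4.17 ± 0.32) and Ces1e (2.48 ± 0.21), of the same list as Rbp2, rose. Between male and female controls at PND42 the genes of lowest p were Cyp2c39 (log2 -2.53 ± 0.33), Rdh16f2 (-1.83 ± 0.28), Aldh1b1 (-1.27 ± 0.23) and the aldehyde oxidase Aox1 (1.11 ± 0.23), all of the enzyme list. Of the 17 enzymes tested there 3 rose and 3 fell in males, against 6.93% of all genes called in either direction.

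Among the 12620 genes tested in all tables, the gene that followed each of the 10 most closely was found from Pearson's r of deviations from the group means over the 30 libraries, a description without a test since the libraries share depth and RNA quality. Adh1 went most closely with Uqcrc1 (r = 0.915), Rdh7 with Serpinc1 (0.910) and Aldh1a1 with Pex13 (0.863). Dhrs3 went with Npc1 (0.845), Rdh16 with Tdo2 (0.787), Aldh8a1 with Slc1a2 (0.757) and Aldh1a7 with Prss36 (0.735). The lowest values were those of Adh7 with Btd (0.718) and Cyp26b1 with Lrrc32 (0.703). Over the 16 PND42 libraries alone, Cyp26a1 went with Fmo5 (0.854). Among the 10 genes themselves Adh1 and Rdh7 were most alike (0.842), and Adh1 and Aldh1a1 gave 0.701. The copies Aldh1a1 and Aldh1a7 gave 0.309.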

How the data were processed

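RNA from 30 livers was read as single-end reads of 125 bases, and every sample had an integrity number of 7 or more, per the labels. Per the submitters' processing notes, FastQC, STAR, featureCounts and build mm10 were used, with no version or strand setting stated. The deposited values are on a log2 scale, made by the authors as log2(read count / size factor + 1). This was read from the values: 100% came back as whole reads within 0.1. A deposited signal column (baseMean) matches the average normalised count over 14 libraries for PND1 and PND21 and 16 for PND42, so these were scaled apart. The authors' log2 fold changes, test score (stat) and p-value columns were deposited for PND1 and PND21, by a tool not given here, and are quoted only as theirs.

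The 10 genes, the gene lists and the tests were chosen with earlier results of these data known. The lists of related genes are named by a rule: up to 4 called genes of lowest p in a comparison, or the 1 of lowest p per list. Where none was called, only the gene of the enzyme list is printed, and only for comparisons of exposure. Count models had been planned, but since the deposited unit is log2, limma 3.58.1 (R 4.3.3, trend and robust empirical Bayes) was fitted to all genes with at least 10 normalised counts in as many libraries as the smallest group, after tests on simulated data. Limma voom on the recovered reads was an alternative. PND42 comparisons shared 1 fit of 4 groups. Tests were two-sided, with Benjamini-Hochberg adjustment and a threshold of 0.05. Other alternatives were scaling by TMM or by total reads, no filter, a pseudocount of 8, each library left out, the replicate number as a block, and covariates added after the data were seen. Replicate numbers did not pair the animals. Of the PND42 control columns, 1 female and 3 male could be tied to their group but to no replicate number. Sequences are from GENCODE vM21 and RefSeq (GRCm38.p6), and all 10 genes matched. Read totals of 22.0 to 40.1 M reads limit precision for genes of few reads.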

Additional observations from a re-analysis of the deposited data

Results flagged for a closer look

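In groups of 4 libraries, a library was singled out where its gap to the nearest other library as a share of the group's range was over Dixon's 95% critical value. Chance does so in about 1 in 20 groups, and 5 of the 58 cases examined were singled out. Adh7 was high in PND1 exposed female 3, at 83.5 normalised counts against 50.8 to 51.4 in the other 3 exposed females, and high in PND1 control female 4, at 123 against 107 to 109 in the other control females. In PND42 exposed male 1, Aldh8a1 was low at 4096 counts, against 6454 to 6655 in the other exposed males, and Rdh16 was low at 879.9 counts, against 2308 to 2564. Cyp26b1 was high in PND42 exposed female 1, at 279 counts against 28.1 to 41.0 in the other exposed females.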

How the results depend on the processing

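Of 807 values of the 10 genes under an alternative, 741 kept their direction and their side of the threshold, 21 were no longer past it, 4 newly passed it and 41 turned direction. Of 96 values of the 8 genes called between PND21 and PND1 controls, 95 stayed called. Of 72 values of the 4 genes called in PND42 females 48 stayed called, 20 did not and 4 turned direction. Calls among the 10 genes at PND42 in females numbered 4, and 2 to 3 with a library left out, 0 with either covariate, and 6 with only the 2 groups compared. No count of called genes among the 10 left 0 in PND1 females, in males, between sexes or in either difference of effects, and with 1 fit of 4 groups it was 1 at PND21 (Aldh1a1).

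With the replicate block 0 genes were called at PND1, 0 at PND21 and 5 in PND42 females, where the same libraries without the block gave 2. Rdh16 was then called in PND42 females (0.65) and Dhrs3 turned to -0.0898 with and without the block. Over all genes the block gave 8 calls at PND21. Same-numbered libraries correlated at -0.07 to 0.12 at PND1, -0.04 to 0.23 at PND21 and -0.03 to 0.05 in PND42 females. In males no block could be fitted, because exposed and control mice have fewer than 2 numbers in common. Replicate numbers did not pair the animals, so the block calls in females are given only as an alternative.

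Values that turned direction were not called under the alternative that turned them. In the main fit these genes had not been called in those comparisons either, apart from Adh1, Aldh1a1 and Rdh7 in PND42 females, which turned under a covariate. The cause was not tested for any of the turned values. With the hepatocyte marker mean as covariate they were 0.0763 for Rdh16 at PND1; 0.15 for Adh1, 0.0744 for Aldh8a1, 0.11 for Rdh7 and -0.49 for Rdh16 at PND21; 0.41 for Adh1, 0.25 for Adh7, 0.83 for Aldh1a1, 0.33 for Aldh8a1, 0.36 for Rdh7 and 0.69 for Cyp26a1 in PND42 females; and 0.15 for Adh7 in males. With the mitochondrial share they were -0.0408 for Dhrs3 at PND21, 0.0207 for Adh7, 0.50 for Aldh1a1, 0.0253 for Aldh8a1 and -0.16 for Dhrs3 in PND42 females, and 0.0906 for Adh7 in males. Scaling by total reads gave 0.00923 for Adh1 and 0.11 for Aldh8a1 at PND21, and 0.091 for Adh7 and 0.0166 for Cyp26b1 in males. Adh7 in males was 0.0188 with TMM scaling and 0.0104 with limma voom. Over all genes, the shift of the median log2 fold change with total reads was 0.24 at PND21, 0.10 in males, -0.37 between sexes, -0.51 between ages and 0.18 in the difference of effects across ages.

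With a library left out, values ranged from -0.10 to 0.56 for Rdh16, -0.17 to 0.27 for Dhrs3 and -0.20 to 2.60 for Cyp26b1 at PND21, and from -0.0357 to 0.21 for Dhrs3 in PND42 females. In males they ranged from -0.15 to 0.18 for Adh7, -0.39 to 0.12 for Rdh16, -0.34 to 0.0353 for Dhrs3 and -0.43 to 0.29 for Cyp26b1. Over all genes the calls with a library left out were 0 to 5 at PND1 (0 with all), 0 to 14 at PND21 (5, and 50 with 1 fit of 4 groups, 2 with limma voom and 0 with either covariate), 0 to 27 in males (0), 371 to 1979 between sexes (907, and 2110 with scaling by total reads), 2 to 12 in the difference of effects across ages (2, with 4 by total reads and 0 by limma voom) and 492 to 1929 in that between sexes (1036). Few reads limit Cyp26b1 most, and Aldh1a7, Rdh16 and Adh7 at PND1.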

Other observations

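The sample tags of most exposed and control animals begin with a number whose meaning no label states, and several numbers recur across groups. The 2 libraries whose tag begins with 11 had the highest Cyp26b1 of their groups, 823 normalised counts in PND21 exposed female 1 and 279 in PND42 exposed female 1. All other exposed libraries had between 15.9 and 110 at PND1 and PND21. At PND42, which was scaled apart, they had between 28.1 and 143. This was noticed after the values were seen and was not tested.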
